A study of Homo sapiens with 4 samples.

Results

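The secreted cytokine and chemokine genes read here as output of NF-κB were CXCL1, CXCL2, CXCL3, CXCL5, CXCL8, CCL2, CCL20, IL6, IL32 and LIF. These 10 genes were chosen by name, with earlier results of these data known. All 10 had an entry among the 61541 gene IDs of the count table. RNA was sequenced from MHCC97H cells, an established human hepatocellular carcinoma (HCC) line, in 2 libraries of control cells (shCon) and 2 libraries of cells in which UBXN1 was knocked down (shUBXN1). UBXN1 is a ubiquitin-binding UBX domain protein known to restrain signaling by nuclear factor κB (NF-κB). Per the methods, both groups carried a lentiviral short hairpin RNA (shRNA) in the pLKO.1 vector and differed by its target. The methods call the control shRFP where the sample labels say shCon, and which UBXN1 hairpin the sequenced cells carried is not given in the sources used here. The comparison was that of shUBXN1 with shCon, and the labels name no cytokine or other stimulus.

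NF-κB dimers are held in the cytoplasm by inhibitor proteins until a signal leads to degradation of the inhibitor, after which they enter the nucleus and bind κB motifs in promoters. The CXC chemokines of this list draw neutrophils, CCL2 draws monocytes and CCL20 draws cells with the receptor CCR6. IL6 and LIF are cytokines that signal through the shared receptor chain gp130 and STAT3, a pathway known in hepatocytes for the acute phase response, and IL32 is a cytokine without a known rodent counterpart that is induced by NF-κB.

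Of the 10 genes, 4 were higher in shUBXN1 cells at an adjusted p under 0.05: IL32 (5.21-fold), CXCL2 (4.02-fold), LIF (3.06-fold) and CXCL5 (1.97-fold). CXCL1, CXCL3, CXCL8 and CCL20 were measured at low counts and did not pass this threshold. CCL2 and IL6 had 0 counts in every library and could not be tested. None was lower. These 4 calls stand against a background in which 28.0% of the 16863 genes tested were higher and 28.2% were lower at the same threshold (edgeR quasi-likelihood test, Benjamini-Hochberg adjustment over all genes tested). With so many genes called in either direction, this count alone does not set the 10 genes apart. The methods name a fold of at least 2 and an unadjusted p under 0.05. Applied to the same edgeR fit, this fold rule also called 4 of the 10 higher, with CXCL1 in place of CXCL5, and none lower. Of all genes tested, 11.8% were higher and 6.09% were lower under it. CXCL1 was tested only through the shUBXN1 libraries, where it is high, so nothing is read from its place in that count. The methods use these thresholds with limma, run here as an alternative. With limma the log2 fold change was 1.01 for CXCL5 and 0.654 for CXCL1, so the exchange of these genes belongs to the edgeR fit.

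The libraries held 23373700 to 27380508 counts, and UBXN1 itself fell from 1788 and 1817 counts in shCon to 416 and 433 in shUBXN1, a log2 fold change of -2.03 ± 0.0963 (SE). The labels do not say whether the 2 libraries of a group came from separate cultures, so p-values measure only the spread between these libraries, which may be technical. Mitochondrial transcripts took 5.28% and 5.59% of counts in shCon and 7.43% and 8.27% in shUBXN1. Among markers of hepatic cells, only KRT8 (89425.12 and 81445.15 counts in shCon) and KRT18 (23865.14 and 22297.25) were abundant. In shCon the others had far fewer counts, from 13 and 22 for APOA1 to 1541 and 1451 for HNF4A, with ALB at 479 and 403. In shUBXN1, 5 of 9 hepatic markers were lower, ALB (log2 fold change -1.97 ± 0.144), TTR (-3.08 ± 0.545) and KRT8 (-0.43 ± 0.0993) among them, and 2 were higher, SERPINA1 (0.40 ± 0.142) and KRT18 (0.31 ± 0.0949). Over all genes tested, 28.2% were lower and 28.0% higher.

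The promoter sequences are shown here because κB motifs are the sites at which NF-κB is known to act, and because 5 of the genes are related copies in 1 cluster. RefSeq promoters (GRCh38.p14, 250 bases before to 50 bases after a start site) were at hand for 8 of the 10 genes, those other than CCL2 and LIF. The letters GGNNTTTCC, searched on both strands and chosen after these promoters had been read, were found in a promoter of each of these 8 genes. Counted by promoter, that was 8 of 9, beside 6.26% of 35116 human promoters of the same length. IL32 had a second start site, whose promoter held no match. The fixed form GGAATTTCC, whose matches are all matches to GGNNTTTCC too, was found in the 5 CXC genes and in 0.461% of all promoters. The textbook κB consensus was found in 7 of the 8 genes (7 of the 9 promoters) and in 5.91% of all promoters, with CXCL8 as the gene without it. Windows of 60 bases around the match nearest to the fixed form, or the first match where there was none, read as follows on the strand of the gene, with the match in capitals.
CXCL1 (chr4:73869295-73869354, plus strand): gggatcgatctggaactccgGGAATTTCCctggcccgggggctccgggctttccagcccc
CXCL2 (chr4:74099233-74099292, minus strand): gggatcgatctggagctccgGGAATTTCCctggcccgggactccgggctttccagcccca
CXCL3 (chr4:74038728-74038787, minus strand): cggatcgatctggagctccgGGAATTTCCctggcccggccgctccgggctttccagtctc
CXCL5 (chr4:73998728-73998787, minus strand): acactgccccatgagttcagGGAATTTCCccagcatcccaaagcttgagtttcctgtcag
CXCL8 (chr4:73740458-73740517, plus strand): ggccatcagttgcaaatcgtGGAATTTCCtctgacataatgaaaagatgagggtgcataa
CCL20 (chr2:227813743-227813802, plus strand): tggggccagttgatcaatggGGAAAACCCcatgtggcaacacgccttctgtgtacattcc
IL6 (chr7:22727108-22727167, plus strand): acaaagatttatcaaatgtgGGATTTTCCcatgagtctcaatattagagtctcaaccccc
IL32 (chr16:3065285-3065344, plus strand): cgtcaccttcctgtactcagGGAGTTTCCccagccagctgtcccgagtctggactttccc

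The match began between positions -98 and -72 from the start site in all 8 windows, and that of CCL20 lay on the opposite strand. CXCL1, CXCL2, CXCL3 and IL32 each held another match to GGNNTTTCC closer to the start. The AP-1 letters TGANTCA were found in CXCL8 only among the 8 genes, against 7.71% of all promoters, and the C/EBP-like letters TTGCNNAA in CXCL2 and IL6, against 10.5%. A match is a description of the letters, and both IL6, with 0 counts in every library, and IL32, with the highest fold, held one.

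CXCL1, CXCL2 and CXCL3 are close copies of each other, which bears on how their reads were assigned. Their coding sequences were 90.7% to 94.4% identical in pairs, and those of CXCL5 and CXCL8 were 53.6% to 62.1% identical to the others and to each other. Their promoters were 71.9% to 82.5% identical among CXCL1, CXCL2 and CXCL3. No stretch of 100 bases of the canonical transcript of CXCL1, CXCL2 or CXCL3 occurred in a transcript of another gene, and their counts were whole numbers in all 4 libraries. How the authors' counting divided reads with more than 1 match is not given in the sources used here, so the values of these 3 genes remain uncertain in that respect.

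CXCL2, a ligand of the neutrophil receptor CXCR2, rose most among the chemokines. It had 27 and 25 counts in shCon and 108 and 94 in shUBXN1, which in CPM (counts scaled to the depth of each library, with TMM factors) are 1.01 and 1.06 against 4.36 and 4.02. The groups did not overlap. The log2 fold change was 2.01 ± 0.299 (SE, n = 2 libraries per group, 95% interval 1.37 to 2.65, edgeR adjusted p = 5.33e-05), and 96% of the genes tested had a smaller one.

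CXCL5, which also signals through CXCR2, was the most abundant chemokine of the list. It had 865.73 and 697.69 expected counts in shCon and 1473.72 and 1483.7 in shUBXN1, or 32.5 and 29.7 CPM against 59.5 and 63.4. Both shUBXN1 libraries lay above both shCon libraries, with a log2 fold change of 0.98 ± 0.0834 (SE, 95% interval 0.803 to 1.16, edgeR adjusted p = 2.32e-07). An antisense gene, ENSG00000287037, covers 17.3% of the exon bases of CXCL5 and had 29.27 to 37.28 counts in the 4 libraries. Whether the counting used strand is not given in the sources used here.

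CXCL1 sat at the limit of what the libraries could measure. It had 11 and 10 counts in shCon and 23 and 23 in shUBXN1, so it passed the filter on low counts only through the shUBXN1 libraries and had to be higher there to be tested at all. The groups did not overlap (0.413 and 0.426 CPM against 0.929 and 0.982). On the log2 scale the difference of 1.18 ± 0.488 (SE) had a 95% interval of 0.135 to 2.23 and an edgeR adjusted p of 0.0524, just outside the threshold.

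CXCL3, the remaining gene of this trio, had 48 and 42 counts in shCon and 59 and 81 in shUBXN1. The shUBXN1 libraries were both above the shCon libraries but differed from each other (2.38 and 3.46 CPM, against 1.80 and 1.79). The log2 fold change was 0.70 ± 0.315 (SE, 95% interval 0.0254 to 1.37, edgeR adjusted p = 0.0724). Without the first shUBXN1 library the log2 fold change was 0.94 and the adjusted p was 0.0245, and without the second it was 0.41 with an adjusted p of 0.391.

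CXCL8, which codes for interleukin-8 and is often taken as a readout of NF-κB in human epithelial cells, did not pass the threshold. It had 52 and 43 counts in shCon and 61 and 74 in shUBXN1, or 1.95 and 1.83 CPM against 2.46 and 3.16, and the groups did not overlap. Its log2 fold change was 0.57 ± 0.305 (SE, edgeR adjusted p = 0.127), and its 95% interval of -0.0834 to 1.22 held both no change and a rise above 2-fold.

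CCL20 was the member nearest to no difference. Its 38 and 42 counts in shCon and 42 and 49 in shUBXN1 gave 1.43 and 1.79 CPM against 1.70 and 2.09, and the groups overlapped. Its log2 fold change was 0.24 ± 0.344 (SE, 95% interval -0.498 to 0.978, edgeR adjusted p = 0.58). A rise of 2-fold lay just outside this interval.

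CCL2 and IL6, both classical NF-κB targets, had 0 counts in all 4 libraries. A count of 0 allows up to 3 counts, which is 0.113 to 0.128 CPM in these libraries, for counting error only. No fold can be given for either gene. IL6-AS1, which overlaps 9.9% of the exon bases of IL6 on the other strand, had 1 count in 1 shCon library and 0 in the rest.

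**Figure D1:**
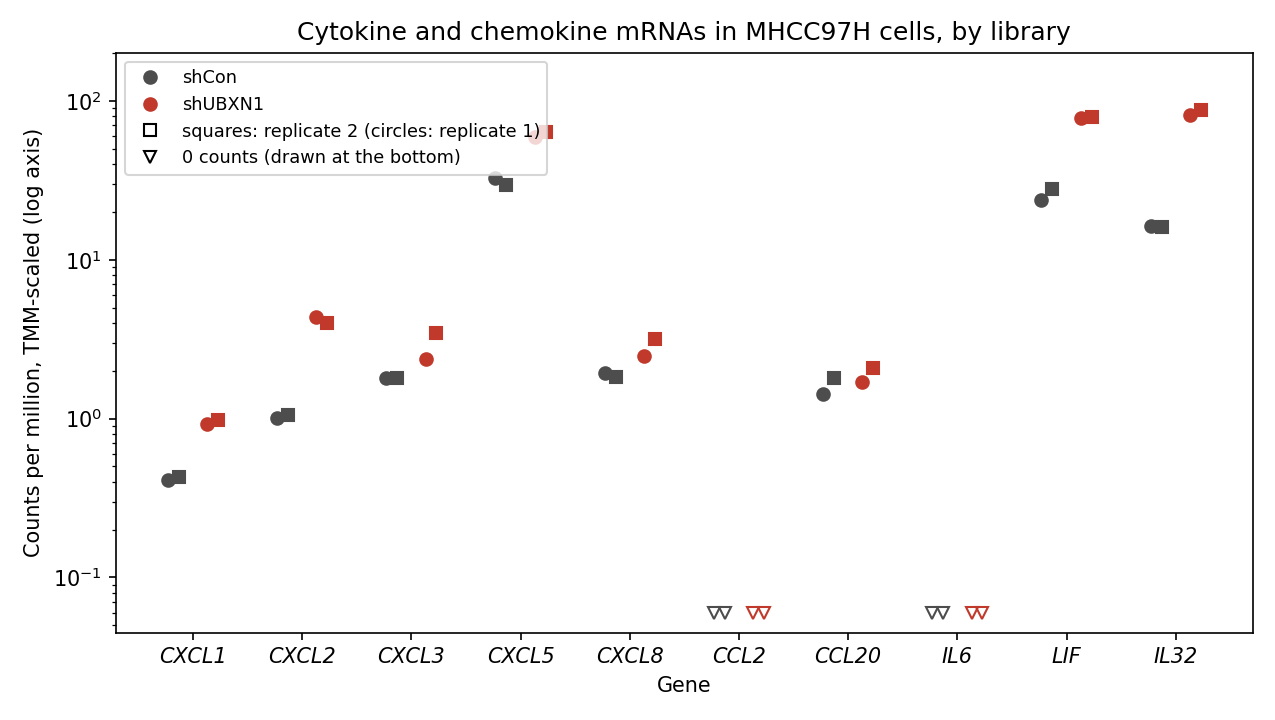
CPM of the 10 genes in each library, on a log axis. Gray marks are shCon and red marks shUBXN1, circles are replicate 1 and squares replicate 2, and open triangles at the bottom stand for 0 counts. IL32, LIF and CXCL5 lie above the others, from 16.0 to 87.0 CPM, and CCL2 and IL6 have no counts.

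LIF, the leukemia inhibitory factor, was measured far above the limit of detection, unlike IL6. It had 631 and 650 counts in shCon and 1935.87 and 1846 in shUBXN1, or 23.7 and 27.7 CPM against 78.2 and 78.9. The groups stood well apart, with a log2 fold change of 1.62 ± 0.0879 (SE, 95% interval 1.43 to 1.80, edgeR adjusted p = 3.25e-09), larger than that of 93.9% of the genes tested. LIF-AS1 overlaps 2.2% of its exon bases and had 0 counts in every library.

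IL32 showed the largest change of the 10 genes. It had 434 and 376 counts in shCon and 2013 and 2036.97 in shUBXN1, or 16.3 and 16.0 CPM against 81.3 and 87.0. The difference was far larger than the spread in either group, with a log2 fold change of 2.38 ± 0.0848 (SE, 95% interval 2.20 to 2.56, edgeR adjusted p = 7.49e-11), and 97.4% of the genes tested had a smaller one.

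**Figure D2:**
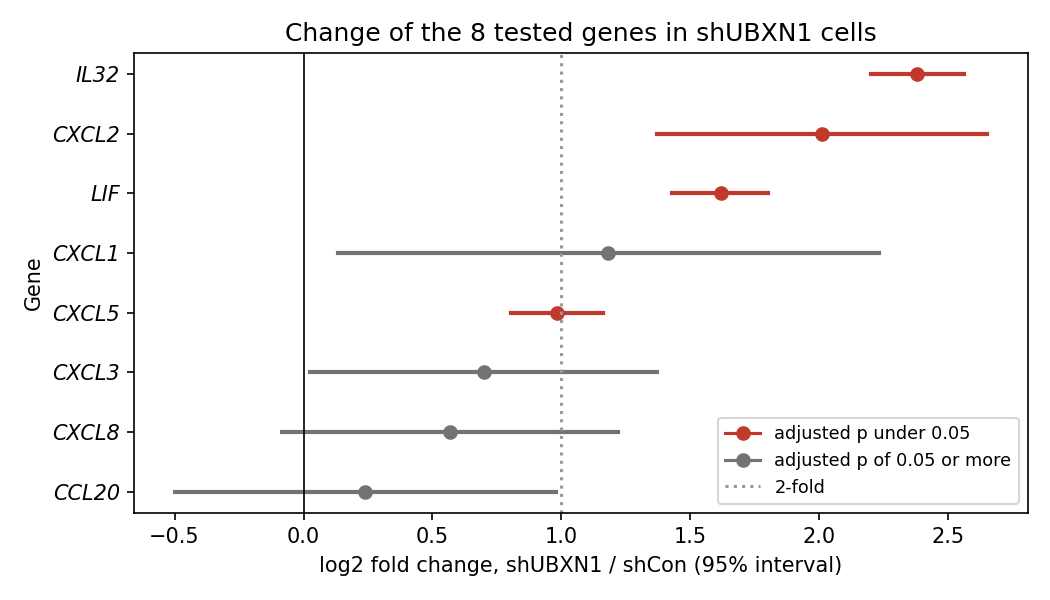
The log2 fold change of shUBXN1 over shCon for the 8 tested genes, with 95% intervals. Red marks passed an adjusted p of 0.05, and the dotted line is a 2-fold rise. IL32, CXCL2, LIF and CXCL5 passed, and the intervals of CXCL8 and CCL20 include 0.

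Per length of transcript the levels can be set side by side, as TPM (counts per base of transcript, scaled to the same total in each library) computed with the gene lengths in the deposited table. In shCon the order of the mean levels was IL32 (29.1 TPM), CXCL5 (25.6), LIF (13.3), CCL20 (3.86), CXCL3 (3.35), CXCL8 (2.31), CXCL2 (1.87) and CXCL1 (0.716). In shUBXN1 it was IL32 (158 TPM), CXCL5 (52.7), LIF (42.4), CXCL2 (7.87), CXCL3 (5.64), CCL20 (4.73), CXCL8 (3.56) and CXCL1 (1.70). CXCL2 moved from below CXCL8 to above CCL20 and CXCL3. No neighbours in the shCon order overlapped in their 2 libraries, whereas CXCL3 (4.81 and 6.48 TPM) and CCL20 (4.41 and 5.05 TPM) overlapped in shUBXN1. The summed level of the 10 genes was 81.2 and 79.0 TPM in shCon and 278 and 275 TPM in shUBXN1, of which IL32 alone made up more than all the others together in shUBXN1.

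The 5 CXC genes lie within 359 kb of chromosome 4 (GRCh38, chr4:73740519-74099196), between genes of other families, and the tested genes within 500 kb of this span were read beside them, chosen by position after their values had been seen. The CXC genes had log2 fold changes of 0.57 to 2.01. Of the 7 neighbours tested, RASSF6 was higher (0.59 ± 0.127, SE, adjusted p = 0.00118), ALB, which codes for serum albumin, was lower (-1.97 ± 0.144, adjusted p = 5.49e-08), and EREG, an EGF receptor ligand, was lower (-2.09 ± 0.0817, adjusted p = 1.81e-10). ANKRD17, AFP, MTHFD2L and AREG did not pass the test, with log2 fold changes of -0.06, -0.29, -0.42 and -0.06. The values of ANKRD17 and AREG were above 0 under scaling to the total count. Of the other CXC chemokines of the same cluster, CXCL6 had 1 and 0 counts in shCon and 4 and 4 in shUBXN1, PF4 had at most 5.15, PF4V1 at most 3 and PPBP had 0.

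Chemokine and cytokine mRNAs are known to be short-lived through AU-rich elements in the 3′ UTR. The nonamer TTATTTATT was found in the 3′ UTR of 5 of the 10 genes, against 8.49% of 19206 protein-coding genes. CXCL2 held 5 copies, CXCL1 3, LIF 2, and CXCL3 and CXCL8 1 each. The shorter pentamer ATTTA was found 11 times in CXCL5 and not at all in IL32, the gene with the largest fold. The 3′ UTRs were 175 (IL32) to 3198 (LIF) bases long, and length was not matched in this comparison.

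Receptors for these ligands were looked at in the same cells. The chemokine receptors were at or near 0, with CXCR2, ACKR1 and CCR2 at 0 counts in all libraries, CXCR1 at no more than 2, and CCR4, CCR6 and ACKR2 at no more than 5. The 3 receptor chains of IL-6 and LIF were tested. IL6ST, which codes for gp130, had 131 and 121 TPM in shCon and 205 and 204 in shUBXN1 (log2 fold change 0.64 ± 0.0758, SE, edgeR adjusted p = 5.82e-06). LIFR, which pairs with gp130 for LIF, rose from 646.29 and 516 counts to 970 and 969 (0.80 ± 0.0915, adjusted p = 4.34e-06). IL6R, the receptor of IL-6, fell from 31.9 and 31.2 TPM to 27.4 and 26.4 (-0.29 ± 0.0724, adjusted p = 0.0035), a call that was lost without the second shCon library (adjusted p = 0.0502).

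Of 23 listed genes for the signaling components and hepatocyte targets of IL-6 and LIF 15 were tested. Of these, 10 were higher and 5 lower, beside 28.0% higher and 28.2% lower over all genes tested. The filter on low counts bears on 6 of these calls: SOCS1 and HPX passed it only through the shUBXN1 libraries, where they are high, and FGB, FGG, ORM1 and ORM2 only through the shCon libraries, so the counts are a description and no support. SOCS3, the feedback inhibitor of gp130, had 382 and 362 counts in shCon and 880 and 992 in shUBXN1 (log2 fold change 1.39 ± 0.108, SE, edgeR adjusted p = 9.89e-08). STAT3 rose from 42.6 and 39.4 TPM to 104 and 101 (1.26 ± 0.0743, adjusted p = 6.79e-09), and the acute phase gene SERPINA3 from 66 and 51.6 counts to 487.31 and 471.18 (3.08 ± 0.154, adjusted p = 1.61e-09). The kinases JAK1 (0.29), JAK2 and TYK2 (0.36), which act upstream of STAT3 and are no targets, made up 3 of the 10 that were higher, and JAK1 lost its call when either shCon library was left out. The 5 genes that fell are also known as acute phase genes, the fibrinogen chains FGA (-2.35), FGB (-4.02 ± 0.283, adjusted p = 3.8e-08) and FGG (-2.57) and the orosomucoids ORM1 (-2.39) and ORM2 (-1.55), the last pair being near-identical copies. CRP, a further acute phase gene, had 0 counts in every library. With the trend of each library on GC content removed, 6 of the list were higher and 5 lower, and TYK2 (0.04) and JAK1 (0.21) lost their calls. Over all 16863 genes tested, that fit called 3881 higher and 5514 lower, in place of 4727 and 4751.

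Of 19 factors known to act on cytokine promoters, 11 were higher, 5 lower and 3 not called, beside 28.0% higher and 28.2% lower over all genes tested. This and the other lists were chosen with earlier results of these data known, so their counts are a description and no support. Under the fold rule 3 were higher and 3 lower, beside 11.8% higher and 6.09% lower over all genes tested. Among AP-1 proteins, JUNB rose from 45.9 and 47.5 TPM to 113 and 98.5 (log2 fold change 1.11 ± 0.0778, SE, adjusted p = 3.49e-08) and FOSL2 from 44.2 and 39.9 to 97.7 and 89.5 (1.09 ± 0.075, adjusted p = 3.01e-08), while FOSL1 did not pass the test (-0.04 ± 0.0851, adjusted p = 0.734). Its sign turned under scaling to the total count (0.0457), and with the trend of each library on GC content removed it was called lower (-0.35, adjusted p = 0.00499). The AP-1 genes FOS and JUND were lower, both named after their values had been seen. FOS fell from 192 and 200 counts to 51 and 67 (-1.67 ± 0.226, adjusted p = 2.17e-05). JUND fell from 1872 and 1669 counts to 923 and 1098 (-0.75 ± 0.0965, adjusted p = 1.42e-05). EGR1 fell from 994 and 1145 counts to 123 and 153 (-2.90 ± 0.152, adjusted p = 2.49e-09), and NFKBIZ, which codes for the NF-κB cofactor IκBζ, from 603 and 522 to 245 and 225 (-1.20 ± 0.114, adjusted p = 6.82e-07). The NF-κB subunits, named after their values had been seen, differed by little: NFKB2 (0.36), RELA (0.31) and RELB (0.31) were higher, NFKB1 (-0.21) was lower and REL (0.22, adjusted p = 0.154) did not pass. CEBPB (0.53) and JUN (0.35) were higher, and with the GC trend removed both lost their calls (0.0074 and 0.148). In that fit 6 factors were higher in place of 11, and 5 were lower. Over all 16863 genes tested, it called 3881 higher and 5514 lower.

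Of 9 inhibitors of NF-κB signaling, 6 were higher, 1 was lower and 2 were not called, beside the same 28.0% and 28.2% over all genes tested. Under the fold rule 2 were higher and 1 lower, beside 11.8% higher and 6.09% lower over all genes tested. With the GC trend removed 4 were higher and 1 lower, where 3881 of the 16863 genes tested were higher and 5514 lower. TNFAIP3, which codes for the ubiquitin-editing enzyme A20, rose from 371 and 309 counts in shCon to 891 and 848 in shUBXN1 (log2 fold change 1.41 ± 0.0975, SE, edgeR adjusted p = 3.12e-08). NFKBIA, which codes for IκBα, rose from 57.4 and 58.5 TPM to 98.4 and 96.0 (0.69 ± 0.0768, adjusted p = 3.46e-06), and the deubiquitinase CYLD from 901 and 808 counts to 1726 and 1784 (1.10 ± 0.0803, adjusted p = 5.55e-08). TNIP2, an A20-binding protein, went the other way, from 1383 and 1251 counts to 619 and 545 (-1.12 ± 0.0848, adjusted p = 7.51e-08). TNIP1 (0.23 ± 0.0727, adjusted p = 0.0151) lost its call when either shCon library was left out and when the GC trend was removed (0.0415), and TAX1BP1 (0.19 ± 0.0788, adjusted p = 0.051) lay just outside the threshold.

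Among 13 factors of cytokine mRNA decay and stability, 4 were higher, 5 were lower and 4 were not called. Over all genes tested the shares were 28.0% higher and 28.2% lower. The RNA-binding proteins HNRNPD, also called AUF1 (204 and 211 TPM against 113 and 129, log2 fold change -0.83 ± 0.0928, SE, adjusted p = 3.43e-06) and KHSRP (140 and 143 TPM against 86.7 and 89.7, log2 fold change -0.74 ± 0.0792, adjusted p = 2.31e-06), both known to bind AU-rich mRNAs, fell together with the kinase MAPKAPK2 (-0.77 ± 0.0868, adjusted p = 3.82e-06). RC3H1, which codes for Roquin-1, was higher (0.52 ± 0.0798, adjusted p = 6.68e-05). ZFP36L1 had the highest level of the ZFP36 family and did not pass the test (0.07 ± 0.0728, adjusted p = 0.466), with a sign that turned when the GC trend was removed (-0.107).

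None of the other chemokines tested was called higher. Of 23 listed, 12 had 0 counts in all libraries and 6 were tested, of which 2 were lower and 4 did not pass the test. The shares over all genes tested were 28.0% higher and 28.2% lower. CCL26 had 538 and 461 counts in shCon and 204 and 208 in shUBXN1 (log2 fold change -1.22 ± 0.121, SE, edgeR adjusted p = 1.09e-06), and CCL15 fell from 164.29 and 179.98 to 43.88 and 47.55 (-1.85 ± 0.238, adjusted p = 1.41e-05). CXCL16, with 37.5 to 40.6 TPM, differed by less than its error (-0.03 ± 0.0851, adjusted p = 0.795), and its sign turned under scaling to the total count (0.0554). With the GC trend removed it was called lower (-0.28, adjusted p = 0.0165).

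Of 29 other cytokines 15 were tested. Of these 6 were higher, 2 were lower and 7 were not called, beside 28.0% higher and 28.2% lower over all genes tested. As 3 of the 6 needed the shUBXN1 libraries to pass the filter on low counts, these counts are a description and no support. IL11, a further gp130 cytokine, had 16 and 6 counts in shCon and 62 and 31.01 in shUBXN1 (log2 fold change 2.13 ± 0.511, SE, adjusted p = 0.00264). Without the first shCon library its log2 fold change was 2.88, and 3 of the list were higher and 0 lower. IL34 had 5 and 3 counts against 19 and 18 (2.24 ± 0.602, adjusted p = 0.00572) and CSF2 1 and 3 against 14 and 10 (2.56 ± 0.768, adjusted p = 0.011), and in none of these 3 genes were both shCon libraries over the filter on low counts. IL1RN, the IL-1 receptor antagonist, had 168 and 142 counts against 220 and 233 (0.61 ± 0.16, adjusted p = 0.00487). CSF1, the macrophage growth factor, fell from 129 and 120 TPM to 107 and 105 (-0.29 ± 0.0735, adjusted p = 0.0038), and IL18 rose from 69.7 and 74.9 TPM to 93.3 and 91.9 (0.30 ± 0.084, adjusted p = 0.00742), and either call was lost without the first shCon library. IL1B (64 and 69 counts against 119 and 107, 0.82 ± 0.241, adjusted p = 0.01) was the remaining gene that rose and CLCF1, a gp130 cytokine at 58.4 to 75.8 TPM, the remaining one that fell (-0.25 ± 0.0799, adjusted p = 0.0159), both named after their values had been seen. MIF, the most abundant of the list at 1020 to 1150 TPM, did not pass the test (0.04 ± 0.0757, adjusted p = 0.656). With the GC trend removed its sign turned and it was called lower (-0.57, adjusted p = 5.63e-05). TNF had at most 3 counts in any library.

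Of the genes that release cytokines from the cell or its surface, ADAM17 rose from 1510.36 and 1424.95 counts to 2501.66 and 2553.68 (log2 fold change 0.84 ± 0.0776, SE, adjusted p = 5.24e-07) and ADAM10 from 4748 and 4036 to 6529.24 and 6684 (0.65 ± 0.0756, adjusted p = 5.1e-06). CASP4 was lower (-0.27 ± 0.0807, adjusted p = 0.0114), a call lost when either shCon library was left out, and PYCARD, the inflammasome adaptor, did not pass (-0.12 ± 0.088, adjusted p = 0.258) but was called lower with the GC trend removed (-0.48, adjusted p = 0.000428). Of 6 genes, 5 were tested, 2 were higher, 1 was lower and 2 were not called. Over all genes tested, 28.0% were higher and 28.2% lower.

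**Figure D3:**
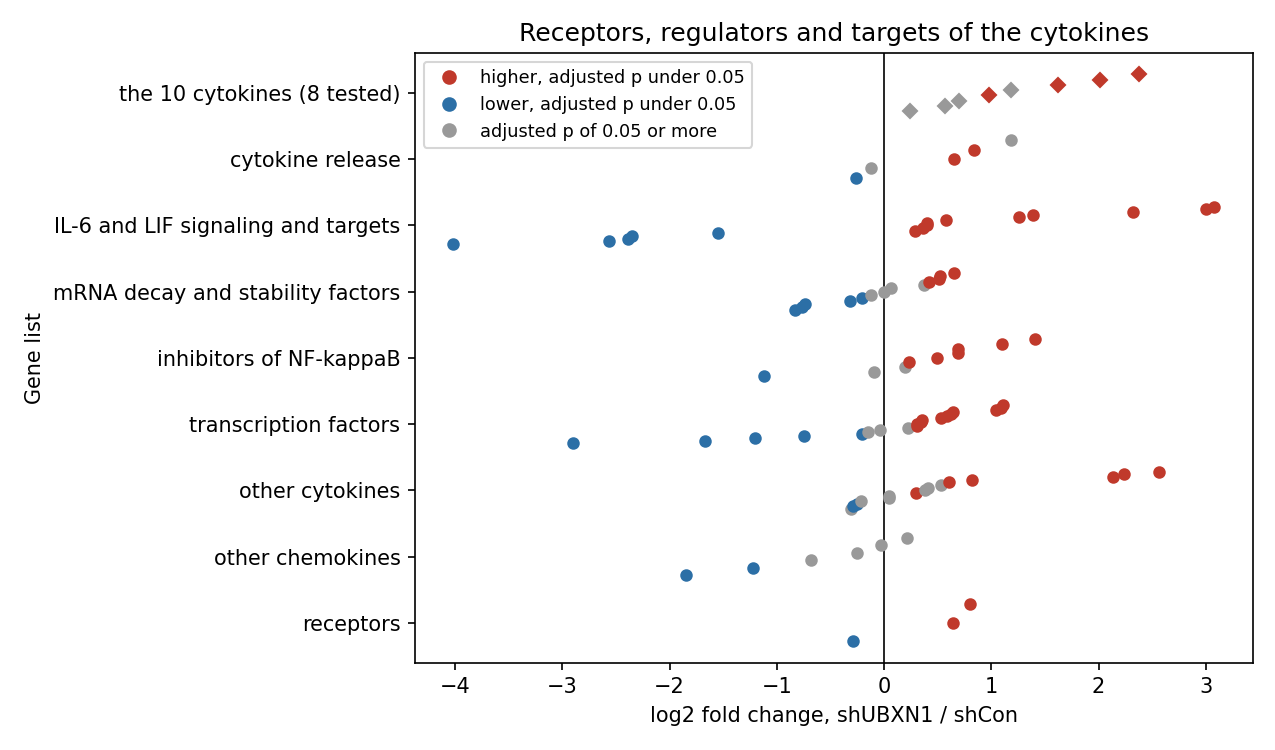
The log2 fold change of each tested gene, grouped by list, with the 8 tested cytokines as diamonds at the top. Red marks were higher and blue marks lower at an adjusted p under 0.05, and gray marks did not pass. The IL-6 and LIF signaling and target genes reach from -4.02 to 3.08 with none between -1.55 and 0.29, and no other chemokine is called higher.

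Over the lists, the median log2 fold change of the tested genes was 0.64 in receptors, -0.47 in other chemokines, 0.39 in other cytokines, 0.31 in transcription factors, 0.49 in inhibitors of NF-κB, -0.00397 in decay factors, 0.40 in IL-6 and LIF signaling and target genes and 0.65 in the release genes, beside 0.016 over all genes tested. These medians include genes that passed the filter on low counts only through the group where they are higher. IL11, IL34, CSF2, SOCS1, HPX and CASP1 needed the shUBXN1 libraries, and FGB, FGG, ORM1 and ORM2 the shCon libraries. The medians are therefore a description and no support. Leukocytes, endothelial cells and fibroblasts are also known sources of the 10 cytokines, so their markers were read in these libraries. The labels name MHCC97H cells and no other cells. In bulk RNA, fewer cells of a type and less RNA per cell cannot be told apart. Of 8 leukocyte markers, CD3E and LST1 had 0 counts, CSF1R at most 1 and PTPRC at most 4, and the summed level of the list was 121 and 130 TPM in shCon and 152 and 140 in shUBXN1, carried by CD68 and CD79A. Among 4 endothelial markers, the summed level was 15.2 and 15.2 TPM in shCon against 31.9 and 32.1 in shUBXN1. KDR had 389 and 371 counts against 1192 and 1324, and PECAM1 had 890 and 779 against 1065 and 979.68. VWF had 9 and 17 counts against 34 and 25. CDH5 went the other way, with 3 and 6 counts in shCon and 0 in shUBXN1, and was too low to be tested. The 5 fibroblast and stellate cell markers summed to 25.0 and 24.8 TPM against 12.4 and 13.6, with LUM falling (-1.06) and COL1A1 at 10 and 4 counts against 58 and 59. The part of these markers, and of the mitochondrial share, in the differences above was not tested.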

How the data were processed

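The authors deposited expected counts per gene, not scaled to depth and written to 2 decimals, together with the length of each gene, for 4 libraries. Per the labels and methods, mRNA libraries were sequenced in paired ends. The methods name alignment to GRCh38, whereas the submitters' processing notes name GRCh37, HISAT2 2.0.4 and StringTie 1.3.0. The counting tool and strand setting are not given in the sources used here. Counts were rounded and tested in edgeR 4.0.16 (R 4.3.3, filterByExpr, TMM, glmQLFit, glmQLFTest, no block), a procedure that was tested on simulated data. Genes were called at a Benjamini-Hochberg adjusted p under 0.05. Standard errors are from the F statistic, and CPM are TMM-scaled. DESeq2 1.42.0 and limma 3.58.1 on log2(TPM + 1) were alternatives, with other scalings and filters, a GC trend per library, a replicate block and leaving out each library. The methods name limma and TPM, and the log2(TPM + 1) scale was chosen here.

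The 10 genes and all lists were chosen with earlier results of these data known. Named genes are the 10, UBXN1, and in each list up to 4 called genes with the smallest p and up to 3 with the highest mean TPM. Others are given by position, as members of a family or where a count needed them. Of the IDs, 99.7% matched a symbol (GENCODE v44). The replicates differed beyond sampling noise (chi-square per degree of freedom 3.79 in shCon and 8.37 in shUBXN1). The libraries hold 23373700 to 27380508 counts, and the limits given for 0 counts cover counting error only.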

Additional observations from a re-analysis of the deposited data

How the results depend on the processing

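The calls of IL32, CXCL2, LIF and CXCL5 held under every alternative run that tested them at the adjusted threshold, with log2 fold changes of 2.10 to 2.47, 1.63 to 2.09, 1.37 to 1.73 and 0.92 to 1.07, and none of the 10 genes was called lower or changed sign. The number called higher was 4 to 6, except with limma on log2(TPM + 1), where it was 7. CXCL1 passed under scaling to the total count (1.26, adjusted p = 0.0406), with at least 10 counts in every library (1.21, adjusted p = 0.0173) and with limma (0.65, adjusted p = 0.00727), and its adjusted p ranged to 0.207 over the alternatives. CXCL3 passed with at least 10 counts (0.73, adjusted p = 0.0398), with limma (0.60, adjusted p = 0.0271) and without the first shUBXN1 library, with adjusted p up to 0.391. CXCL8 passed with limma (0.46, adjusted p = 0.0436) and with the GC trend and the replicate block together (0.72, adjusted p = 0.0444), with adjusted p up to 0.413. Folds from limma are on the log2(TPM + 1) scale, which understates changes of low genes. The cause of the other differences was not tested. Over all genes, the fold rule called 1997 higher and 1027 lower, against 4727 and 4751 at the adjusted p. A lone library left in a group was assumed to vary like the other group.

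Same-numbered libraries did not deviate together (correlation 0.0393 across genes), and the labels do not say whether they share more than a number. A fit with the replicate number as a block called 4 of the 10 genes higher, 5000 of all genes higher and 5023 lower, and moved TAX1BP1 (0.19, adjusted p = 0.0242) and MTHFD2L (-0.42, adjusted p = 0.0318) past the threshold.

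Signs turned for 6 other named genes, none of them called in the fit reported above. Under scaling to the total count, which moved the median of all genes from 0.016 to 0.10, values were 0.0554 for CXCL16, 0.0457 for FOSL1, 0.023 for ANKRD17 and 0.0256 for AREG. With limma they were 0.0297 for CXCL16 and 0.0188 for FOSL1. With the GC trend removed, MIF was at -0.57 and ZFP36L1 at -0.107, and with the block also they were at -0.569 and -0.108. MIF was called lower in both of these fits (edgeR adjusted p = 5.63e-05 and 1.31e-09), and ZFP36L1 in neither. Leaving out 1 library each time gave -0.11 to 0.0501 for CXCL16, -0.0193 to 0.103 for MIF, -0.147 to 0.0607 for FOSL1 and -0.268 to 0.128 for AREG. With at least 10 counts in every library, 1 of the IL-6 and LIF signaling and target genes was lower in place of 5, since fewer genes were tested. Genes of low counts, CXCL1 above all, are limited by depth, and 2 libraries per group limit the estimate of spread for every gene.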
